A study of Zea mays with 18 samples.

Results

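Maize kernels carried transcripts of 5 loci for ethanolic fermentation, and for 3 of them the change between stages differed between the 2 lines. From DAP 24 (days after pollination) to DAP 35 this line difference was called higher for 1.66% and lower for 0.706% of all tested loci. From DAP 35 to maturity it was called for 5.9% and 7.92%. In DAN3130 all 5 loci were lower in mature kernels than on DAP 35, where 31.5% of all tested loci were called lower. In JI63 pyruvate decarboxylase1 (PDC1) and alcohol dehydrogenase1 (ADH1) were also lower at maturity, but pyruvate decarboxylase2 (PDC2) and pyruvate decarboxylase3 (PDC3) were called higher under the scaling of the deposited table, PDC3 in only part of the fits tried. At that step of JI63, 27.8% of all tested loci were called lower and 17.8% higher. The members were chosen by gene name: every assembled locus, introns left out, whose annotated gene name holds "pyruvate decarboxylase" or begins with "alcohol dehydrogenase". The rule gave 3 loci of pyruvate decarboxylase and 2 of alcohol dehydrogenase, 5 of the 77704 loci in the table, and all 5 were among the 29191 loci tested. The rule reads names and no measured value, though it was set with earlier results of these data known.

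Pyruvate decarboxylase removes carbon dioxide from pyruvate, the end product of glycolysis, and leaves acetaldehyde; it needs thiamine pyrophosphate as a cofactor. Alcohol dehydrogenase then reduces acetaldehyde to ethanol and turns NADH back into NAD+, so that glycolysis can go on when oxygen is too scarce for respiration. In maize both alcohol dehydrogenase genes are classical genes of the response to flooding, and the interior of a filling cereal kernel is known to be low in oxygen.

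The study set DAN3130 against JI63, inbred lines that differ in kernel folate, in whole kernels on DAP 24, on DAP 35 and at maturity. All plants were grown at 1 site in 1 summer, and the labels name no transgene or treatment. Each of the 6 groups had 3 libraries, 18 in all. The sources speak of 3 biological replicates and also of pooled total RNA, without saying how the pools relate to the libraries, so the p-values measure the spread between these libraries, which may be partly technical.

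Reads in loci ran between 9428728 and 133264978 per library. In the paper's overview of sequencing, uniquely placed reads were a smaller part of mapped reads in every mature library than in any immature one. GC content varied more among the mature DAN3130 libraries than among the mature JI63 ones. The part of these differences in the results at maturity was not tested. The kernel label was checked against marker genes fixed by name. Embryo genes (oleosins, globulins and viviparous1) summed to between 379000 and 2911900 normalized counts in the 18 libraries. Endosperm genes (zeins and starch or storage regulators) summed to between 4022 and 29669 in the mature libraries of both lines, against 208960 to 1819300 in the immature ones. The summed basal transfer layer list was 0 in all 3 mature JI63 libraries and at most 120.7 in mature DAN3130, and green tissue genes summed to at most 1286 in any library. Every change at maturity therefore stands beside a loss of endosperm transcripts, whose part in the fermentation results was not tested. In whole kernels, fewer cells of a type and less RNA per cell cannot be told apart.

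PDC1 (Zm00001d010588, chromosome 8, 121125952 to 121128814 in the B73 AGPv4 build, longest isoform 2479 bases) varied more among replicates than the other decarboxylases in every group but mature JI63. In DAN3130 the normalized count of PDC1 was 3250, 3561 and 1529 on DAP 24, 5298, 1841 and 7851 on DAP 35, and 470.7, 184.2 and 245.1 at maturity. In JI63 it was 5013, 1955 and 1817 on DAP 24, 5813, 9360 and 3999 on DAP 35, and 603.8, 695.6 and 679.1 at maturity. The mature libraries lay below every immature library, whereas the 2 immature stages overlapped within each line and the lines overlapped at each of them. Between DAP 35 and maturity PDC1 fell by 3.93 on the log2 scale in DAN3130 (SE 0.53, adjusted p = 2.06e-05; -4.54 without DAN3130 DAP 35 replicate 2) and fell by 3.19 in JI63 (SE 0.53, adjusted p = 0.000164). All adjusted p-values given here are from limma with Benjamini-Hochberg adjustment over the 29191 loci, on log2 of the normalized count plus 1. Under the deposited scaling the mature DAN3130 libraries lay below the mature JI63 libraries with no overlap. As shares of the reads in loci of each library, the mature libraries of the lines overlapped. The log2 difference of -1.25 (95% interval -2.38 to -0.11) had an adjusted p of 0.0784. Leaving out DAN3130 mature replicate 1 gave -1.63 with an adjusted p of 0.0362, and leaving out DAN3130 DAP 35 replicate 2 left the difference as it was with an adjusted p of 0.0444.

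PDC2 (Zm00001d008651, chromosome 8, 15983269 to 15986705, longest isoform 2140 bases) followed different courses in the 2 lines. Its normalized count in DAN3130 was 2646, 2805 and 2403 on DAP 24, 3996, 3108 and 3904 on DAP 35, and 890.7, 464.0 and 1182 at maturity. In JI63 the locus stood at 6318, 6561 and 7191 on DAP 24, 2255, 2653 and 2140 on DAP 35, and 4706, 4666 and 5440 at maturity. JI63 thus had its highest level on DAP 24 and its lowest on DAP 35, while DAN3130 had its highest on DAP 35 and its lowest at maturity. Under the deposited scaling the highest group means were, in order, JI63 on DAP 24, JI63 mature and DAN3130 on DAP 35. DAN3130 on DAP 24, JI63 on DAP 35 and DAN3130 mature followed. The only neighbours that overlapped were DAN3130 on DAP 24 and JI63 on DAP 35. As shares of the reads in loci of each library, mature JI63 overlapped JI63 on DAP 35 and DAN3130 on DAP 24.

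From DAP 24 to DAP 35, PDC2 fell by 1.51 on the log2 scale in JI63 (SE 0.24, adjusted p = 0.00109), and it differed by 0.48 in DAN3130 (adjusted p = 0.315). The DAN3130 difference was called with a variance for each group (adjusted p = 0.0101) and without DAN3130 mature replicate 2 (adjusted p = 0.0472). From DAP 35 to maturity it fell by 2.21 in DAN3130 (adjusted p = 2.74e-06) and rose by 1.07 in JI63 (SE 0.24, adjusted p = 0.00196). The line difference in the stage change was itself past the threshold at both steps. The DAN3130 change minus the JI63 change was 1.99 (SE 0.34, adjusted p = 0.00847) from DAP 24 to DAP 35 and -3.28 (SE 0.34, adjusted p = 3.1e-05) from DAP 35 to maturity.

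Endosperm markers moved at the first step too, and more loci of the list were called in JI63. Their sum was 208960 to 219870 on DAP 35 of JI63, against 733380 to 1394900 on DAP 24. There 7 of 15 tested loci were called lower, beside 4.82% of all loci. In DAN3130 the sum was 797120 to 870840 on DAP 35, against 1517800 to 1819300 on DAP 24. By limma 0 of 15 were called lower, beside 2.14% of all loci, with 4 at an unadjusted p under 0.05, 1 by edgeR and 2 by DESeq2. The line difference in this change was called for 0 of the 15 by limma, beside 1.66% of all loci higher and 0.706% lower. It was positive for 6 at an unadjusted p under 0.05, with 1 called by edgeR and 2 by DESeq2. The basal transfer layer sum of JI63 was 146.7 to 402.3 on DAP 35, against 5760 to 7114 on DAP 24. In DAN3130 the embryo sum was 379000 to 495710 on DAP 24 and 989690 to 1138500 on DAP 35. In JI63 the embryo sum was 670890 to 761100 on DAP 24 and 1017100 to 2813100 on DAP 35. By limma 2 of 5 tested embryo loci were called higher and 0 lower in each line, beside 4.41% and 4.27% of all loci higher. DESeq2 called 1 embryo locus lower in JI63. The part of these tissue markers in the changes of PDC2 and PDC3 was not tested.

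PDC3 (Zm00001d028759, chromosome 1, 45724685 to 45729207, longest isoform 3575 bases) gave the largest signal of the 3 decarboxylase loci in every library. The normalized count of PDC3 in DAN3130 was 10373, 10070 and 10581 on DAP 24, 25325, 21532 and 20853 on DAP 35, and 13877, 12644 and 18175 at maturity. In JI63 it was 34871, 28562 and 32071 on DAP 24, 29013, 35274 and 28793 on DAP 35, and 46187, 35410 and 42899 at maturity. Under the deposited scaling, all 9 DAN3130 libraries lay below all 9 JI63 libraries. Within DAN3130 the 3 stages did not overlap under it. Within JI63 the mature libraries lay above those of DAP 24 and DAP 35, which overlapped. As shares of the reads in loci of each library, DAN3130 still lay below JI63 at each stage. On that scale DAN3130 on DAP 35 overlapped mature JI63, and DAN3130 on DAP 24 overlapped mature DAN3130. The mature JI63 shares lay below those of DAP 24 and DAP 35 in JI63.

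In DAN3130, PDC3 rose 2.17-fold from DAP 24 to DAP 35 (log2 1.12, SE 0.14, adjusted p = 0.00017) and then fell by 0.61 on the log2 scale to maturity (adjusted p = 0.00213). The fall was not called when each group had its own variance (adjusted p = 0.0832) or when only the groups compared were fitted (adjusted p = 0.0835). In JI63 the log2 change from DAP 24 to DAP 35 was -0.039 (95% interval -0.34 to 0.26), and from DAP 35 to maturity PDC3 rose by 0.42 (adjusted p = 0.0253). That rise lost its call without JI63 DAP 35 replicate 1 (adjusted p = 0.0881), JI63 DAP 35 replicate 3 (adjusted p = 0.0893), JI63 mature replicate 1 (adjusted p = 0.104) or JI63 mature replicate 3 (adjusted p = 0.0698). With all libraries it was also not called by edgeR (adjusted p = 0.0972), when only the groups compared were fitted (adjusted p = 0.187), with no filter (adjusted p = 0.0726) or with no trend (adjusted p = 0.117). The DAN3130 change minus the JI63 change was 1.16 for the first step (adjusted p = 0.00866) and -1.03 for the second (adjusted p = 0.00317).

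The scaling of the libraries also bears on the rises of PDC2 and PDC3 in JI63 at maturity. When the libraries were set to equal totals, the median of all tested loci shifted by -0.87 for mature over DAP 35 in JI63 and by -0.48 in DAN3130. Under that scaling the JI63 change was 0.12 for PDC2 (adjusted p = 0.707), and that of PDC3 turned to -0.53 (adjusted p = 0.0015). Equal totals lowers every other rise of JI63 or DAN3130 at maturity given here by about the shift of its line, and none of those rises was called under it. Relative to the median locus, PDC2 in JI63 was higher at maturity by 1.43 under the deposited scaling and by 1.35 under equal totals, and PDC3 by 0.78 and 0.70. In DAN3130 the same quantity for PDC3 was -0.18 and -0.17.

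**Figure D1:**
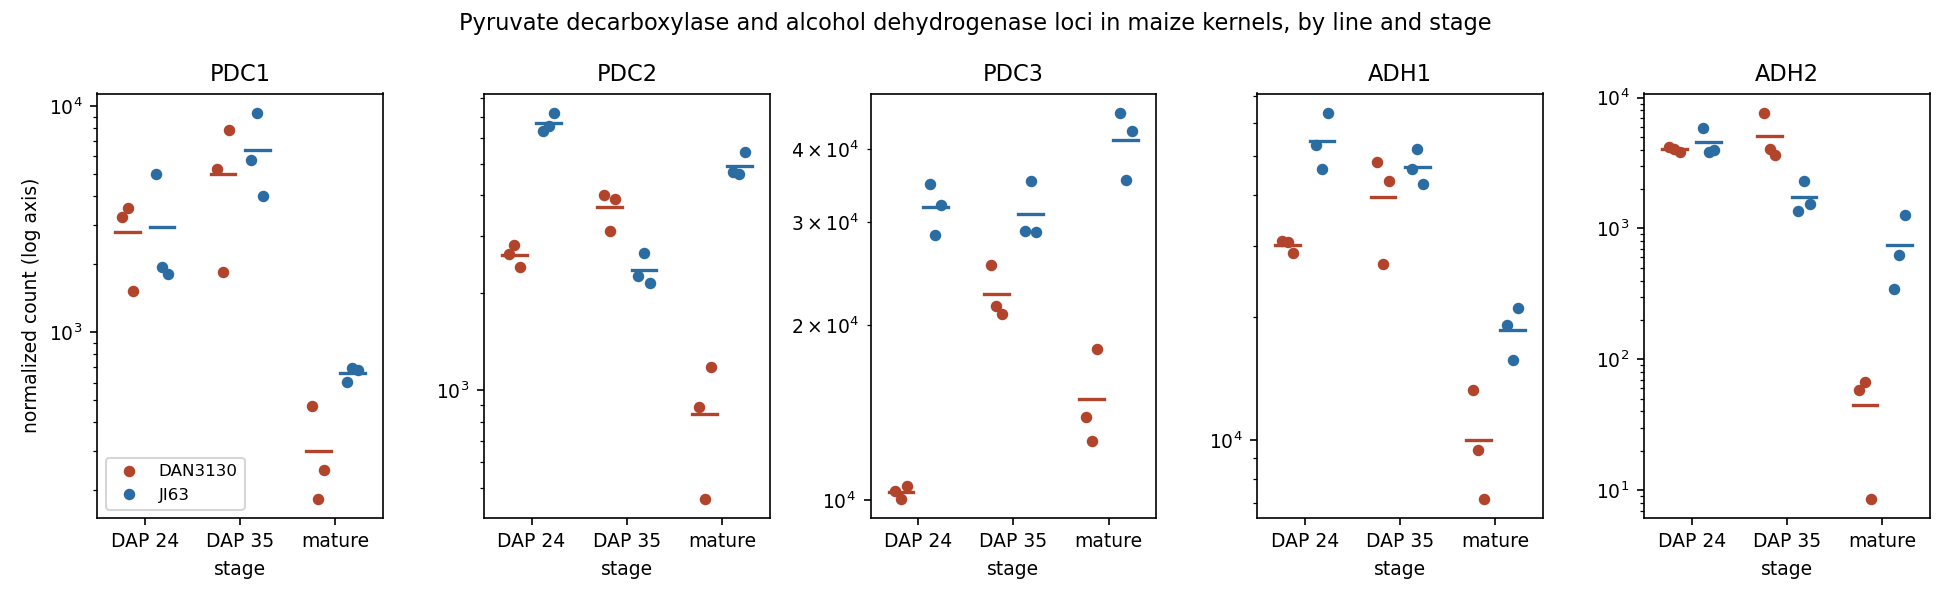
Normalized count (log axis, a separate range in each panel) of each of the 5 loci in the 18 libraries, by stage, with DAN3130 left of JI63; points are libraries and bars are means of 3. Under the deposited scaling PDC3 in JI63 lay between 28562 and 46187 over the 3 stages, and ADH2 in mature DAN3130 lay between 8.64 and 67.3.

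ADH1 (Zm00001d033931, chromosome 1, 278821298 to 278825118, longest isoform 1890 bases) encodes the main alcohol dehydrogenase of the maize kernel. In DAN3130 its normalized count was 30909, 30728 and 28862 on DAP 24, 48138, 27105 and 43310 on DAP 35, and 13298, 9439 and 7173 at maturity. In JI63 ADH1 stood at 53084, 46250 and 63696 on DAP 24, 46241, 52017 and 42500 on DAP 35, and 19137, 15743 and 21104 at maturity. The mature libraries of each line lay below all immature libraries. Under the deposited scaling the mature DAN3130 libraries lay below the mature JI63 ones. As shares of the reads in loci of each library, the mature libraries of the lines overlapped. The 2 immature stages overlapped within each line.

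ADH1 was 3.97-fold lower in mature than in DAP 35 kernels of DAN3130 (log2 -1.99, SE 0.22, adjusted p = 3.02e-06) and 2.52-fold lower in JI63 (log2 -1.34, SE 0.22, adjusted p = 0.00015). The line difference in this change was -0.65 (95% interval -1.32 to 0.0089, adjusted p = 0.179), so the deeper fall in DAN3130 was not past the threshold. Without DAN3130 DAP 35 replicate 2 it was -0.91 with an adjusted p of 0.0487. From DAP 24 to DAP 35 the changes were 0.35 in DAN3130 and -0.20 in JI63 (adjusted p = 0.47 and 0.757).

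ADH2 (Zm00001d049059, chromosome 4, 14333136 to 14336565, longest isoform 1712 bases), the second alcohol dehydrogenase gene, showed the widest change of the 5 loci. Its normalized count in DAN3130 was 4214, 4063 and 3805 on DAP 24, 7646, 4053 and 3639 on DAP 35, and 57.9, 67.3 and 8.64 at maturity. The mature values rest on 24, 19 and 8 reads. In JI63 the counts were 5852, 3839 and 3982 on DAP 24, 1352, 2307 and 1539 on DAP 35, and 343.2, 631.4 and 1273 at maturity. The JI63 libraries of DAP 35 lay below those of DAP 24 with no overlap, whereas the DAN3130 libraries of DAP 24 and DAP 35 overlapped and only the mature ones were low.

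From DAP 35 to maturity ADH2 fell by 7.16 on the log2 scale in DAN3130 (SE 0.60, adjusted p = 1.73e-07), a 143-fold difference. Without mature replicate 3, the library with 8 reads, it fell by 6.25, a 76.2-fold difference. In JI63 the same change was -1.37 (95% interval -2.64 to -0.10) and missed the threshold at an adjusted p of 0.0738. It passed without JI63 mature replicate 3 (-1.86, adjusted p = 0.0294), without DAN3130 mature replicate 2 (adjusted p = 0.0471) and without DAN3130 mature replicate 3 (adjusted p = 0.00909). It also passed in DESeq2 (adjusted p = 0.0450), with a pseudocount of 5 (adjusted p = 0.0460), with a variance for each group (adjusted p = 0.0154) and under equal totals (-2.32, adjusted p = 0.00627). The DAN3130 change minus the JI63 change was -5.79 (SE 0.85, adjusted p = 0.000368), and -4.88 without DAN3130 mature replicate 3. From DAP 24 to DAP 35 the JI63 change of -1.41 had an adjusted p of 0.185, with 0.0288 in a fit of only the groups compared, 0.0438 in DESeq2, 0.00277 with a variance for each group and 0.0292 without DAN3130 mature replicate 3. The line difference in that first step was 1.67 (adjusted p = 0.414), and it was called when only the groups compared were fitted (adjusted p = 0.0228) and with a variance for each group (adjusted p = 0.0140).

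Counted together, 1 of 5 loci was called higher and 0 lower between DAP 24 and DAP 35 of DAN3130 (comparison I), where 4.41% of all tested loci were called higher and 2.14% lower. In JI63 (comparison II) 0 were called higher and 1 lower, beside 4.27% and 4.82% of all loci. From DAP 35 to maturity 5 of 5 were called lower in DAN3130 (comparison III), where 31.5% of all tested loci were called lower and 19.2% higher. In JI63 (comparison IV) 2 were called higher and 2 lower, beside 17.8% and 27.8% of all loci. The line difference in the stage change was called higher for 2 and lower for 0 loci at the first step, beside 1.66% and 0.706% of all loci, and higher for 0 and lower for 3 at the second, beside 5.9% and 7.92%. Comparisons I and III share the DAP 35 libraries of DAN3130, and II and IV share those of JI63, so that a high or low DAP 35 library moves both. Where limma called 0 loci in a direction in these comparisons, edgeR and DESeq2 also called 0, and at an unadjusted p under 0.05 the count was 0 except for 1 locus, PDC1, higher in comparison II.

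**Figure D2:**
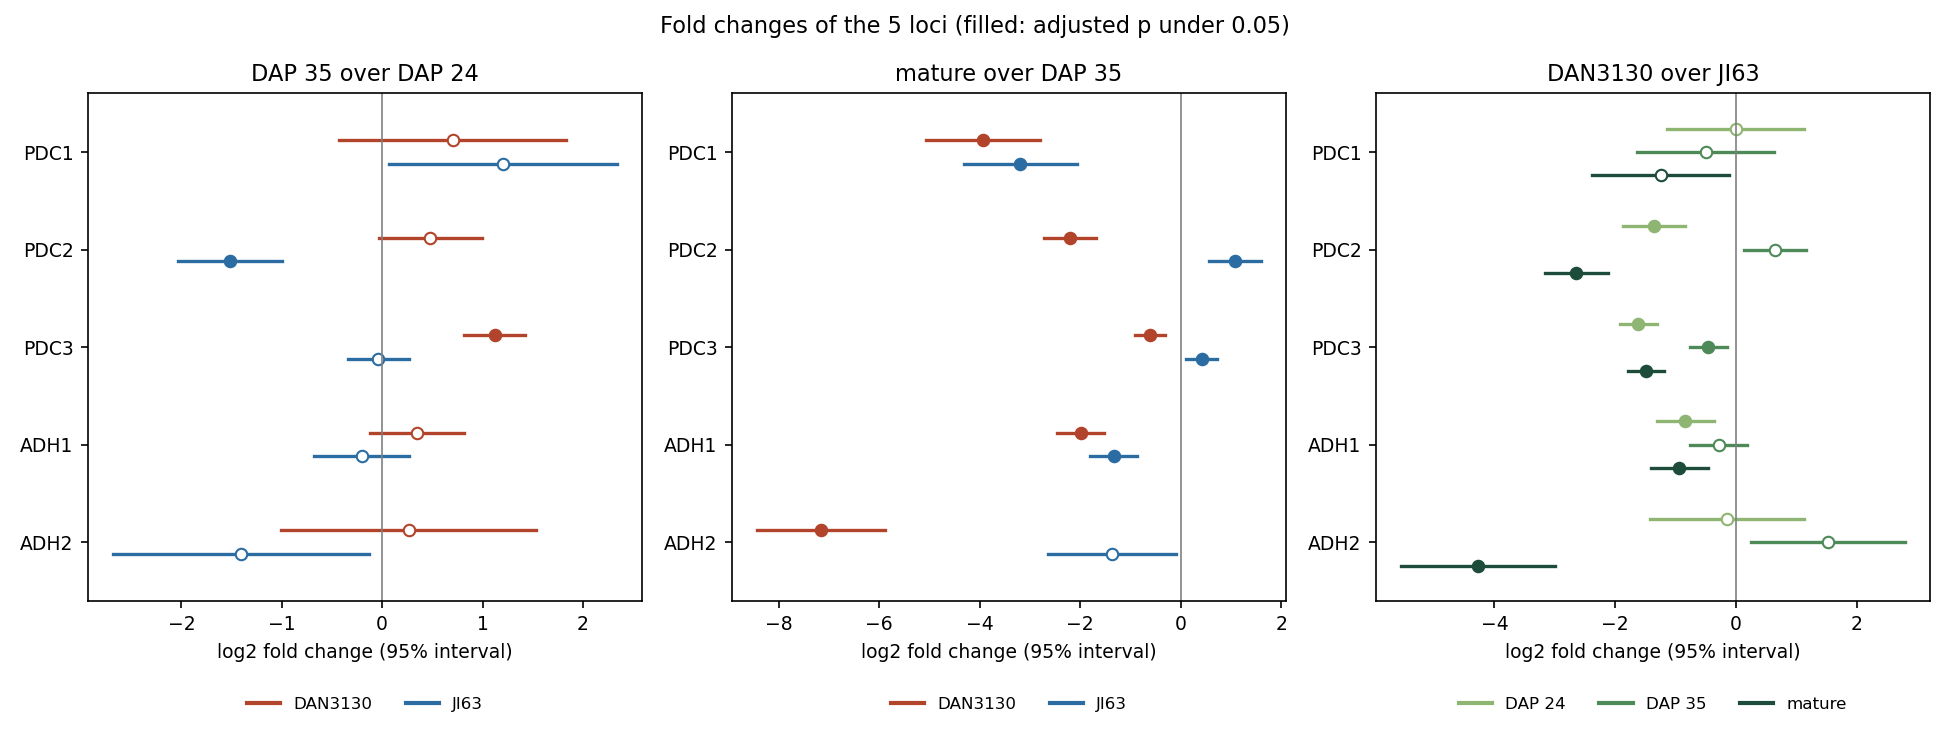
Log2 fold change with its 95% interval for each locus between stages of each line (left and middle) and between the lines at each stage (right); filled points have an adjusted p under 0.05. For PDC2 the estimates of the 2 lines lie on opposite sides of 0 at both steps, and for ADH2 the DAN3130 change to maturity of -7.16 lies far from the JI63 change of -1.37.

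Set against JI63 at the same stage, DAN3130 had the lower level of every locus whose difference was called, at every stage. On DAP 24, 3 loci were lower and 0 higher, where 13.6% of all loci were called lower and 11.2% higher. PDC3 averaged 10342 ± 257 in DAN3130 and 31835 ± 3161 in JI63 (SD, n = 3 each), a log2 difference of -1.62 (SE 0.14, adjusted p = 4.52e-07). PDC2 differed by -1.35 (adjusted p = 0.000521). ADH1 differed by -0.84 (adjusted p = 0.00989), and without JI63 DAP 24 replicate 3 by -0.72 with an adjusted p of 0.0520. PDC1 and ADH2 overlapped between the lines on DAP 24, with 95% intervals of -1.13 to 1.13 for PDC1 and -1.42 to 1.12 for ADH2.

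On DAP 35 the lines were closer, and 1 locus was called lower and 0 higher, beside 11.9% and 11.3% of all loci. PDC3 was the locus called, at a log2 difference of -0.46 (adjusted p = 0.0276). It lost the call without DAN3130 DAP 35 replicate 2 (adjusted p = 0.0838), DAN3130 DAP 35 replicate 3 (adjusted p = 0.101) or JI63 DAP 35 replicate 2 (adjusted p = 0.118), and also in edgeR (adjusted p = 0.142), when only the groups compared were fitted (adjusted p = 0.103), with no filter (adjusted p = 0.0649) and with no trend (adjusted p = 0.141). PDC2 (0.64, 95% interval 0.12 to 1.16, adjusted p = 0.0713) and ADH2 (1.52, 95% interval 0.25 to 2.79, adjusted p = 0.0834) were the loci with DAN3130 above JI63, and neither overlapped between the lines. Without DAN3130 mature replicate 3, which these comparisons use only for the shared variance, both were called higher (adjusted p = 0.0233 for PDC2 and 0.00879 for ADH2), and without DAN3130 mature replicate 2 PDC2 was (adjusted p = 0.0032). The fit of only the groups compared called both higher (adjusted p = 0.0217 for PDC2 and 0.0227 for ADH2), as did DESeq2 (adjusted p = 0.0333 for PDC2 and 0.0119 for ADH2) and a variance for each group (adjusted p = 0.00198 for PDC2 and 0.00192 for ADH2). ADH2 alone was called higher by edgeR (adjusted p = 0.0220) and with a pseudocount of 5 (adjusted p = 0.0494). At an unadjusted p under 0.05, 2 loci were higher in DAN3130 in limma, and after adjustment edgeR called 1 and DESeq2 2. For DAP 24 and mature kernels these 3 counts of higher loci were 0.

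In mature kernels 4 loci were called lower in DAN3130 and 0 higher, beside 21.5% and 15.6% of all loci. ADH2 averaged 44.6 ± 31.5 in DAN3130 and 749.2 ± 476.0 in JI63 (SD, n = 3 each), a log2 difference of -4.27 (adjusted p = 3.84e-05), and -3.36 without DAN3130 mature replicate 3. PDC2 averaged 845.7 ± 361.3 in DAN3130 and 4938 ± 435.8 in JI63, a difference of -2.64 (adjusted p = 4.52e-07). PDC3 differed by -1.49 (adjusted p = 6.82e-07) and ADH1 by -0.94 (adjusted p = 0.00349). The ADH1 difference was -0.44 with an adjusted p of 0.206 under equal totals, and had an adjusted p of 0.101 when only the mature groups were fitted and 0.142 with a variance for each group. ADH2 had an adjusted p of 0.0531 when only the mature groups were fitted. Reads of both lines were aligned to B73, a different inbred, so a sequence difference from B73 could change how many reads of a line are counted, and its part in the line differences was not tested.

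Tissue markers also differed between the lines. Of all loci, 11.2% were called higher in DAN3130 on DAP 24, 11.3% on DAP 35 and 15.6% at maturity. Called lower were 13.6%, 11.9% and 21.5% at these stages. On DAP 24 the basal transfer layer sum was 7894 to 8807 in DAN3130 and 5760 to 7114 in JI63, with 4 of 7 tested loci called higher in DAN3130, and the embryo sum was 379000 to 495710 in DAN3130 and 670890 to 761100 in JI63, with 1 of 5 called lower. On DAP 35 the endosperm sum was 797120 to 870840 in DAN3130 and 208960 to 219870 in JI63, with 5 of 15 called higher, and 6 of 7 basal transfer layer loci were called higher and 1 lower. In mature kernels the endosperm sum was 5969 to 29669 in DAN3130 and 4022 to 7271 in JI63, with 9 of 15 called higher, and the embryo sum was 444290 to 1938200 in DAN3130 and 2104400 to 2911900 in JI63, with 2 of 5 called lower. The part of these markers in the lower fermentation levels of DAN3130 was not tested.

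Levels of different loci can be compared only per length, here per kilobase of the longest isoform. On that scale PDC3 held the largest share of the decarboxylase signal in every library, at 55.6% ± 6.5 on DAP 24, 63.7% ± 9.7 on DAP 35 and 89.2% ± 3.0 at maturity in DAN3130 (SD, n = 3 each). In JI63 the PDC3 share was 67.5% ± 1.2 on DAP 24, 70.8% ± 4.6 on DAP 35 and 81.7% ± 2.1 at maturity. The share of PDC1 was 2.63% ± 1.39 in mature DAN3130 and 1.90% ± 0.34 in mature JI63, against 19.2% ± 10.1 in DAN3130 and 20.3% ± 5.1 in JI63 on DAP 35. PDC2 held 8.19% ± 2.2 in mature DAN3130 and 16.4% ± 1.8 in mature JI63, and the libraries of the 2 lines did not overlap. A share within 1 library does not depend on how libraries were scaled.

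For the dehydrogenases, ADH1 supplied between 85.1% and 99.9% of the signal per kilobase in every library. The ADH2 share in DAN3130 was 12.8% ± 0.2 on DAP 24, 12.5% ± 3.5 on DAP 35 and 0.464% ± 0.324 at maturity. In JI63 it was 8.57% ± 2.2 on DAP 24, 3.88% ± 0.77 on DAP 35 and 4.14% ± 2.15 at maturity. The shares of DAP 35 and mature libraries overlapped in JI63, while in DAN3130 all mature shares lay below those of DAP 35.

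**Figure D3:**
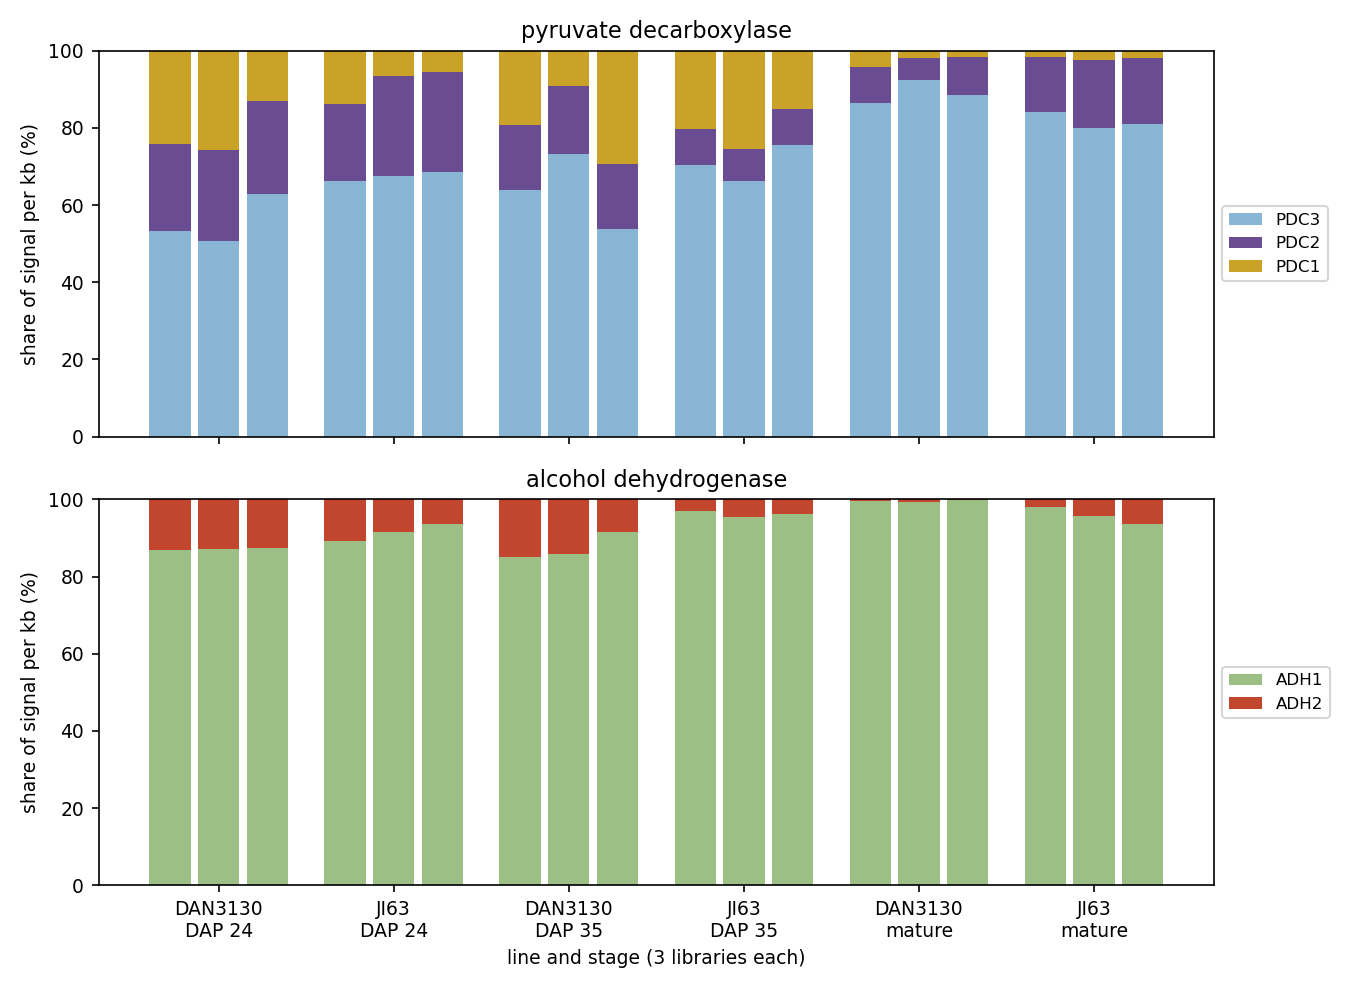
Share of the summed signal per kilobase (%) that each locus held within pyruvate decarboxylase (top) and alcohol dehydrogenase (bottom), 1 bar per library, 3 libraries per line and stage. PDC1 held 2.63% in DAN3130 and 1.90% in JI63 on average at maturity, and ADH2 is almost missing from the mature DAN3130 bars, where it averaged 0.464%.

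Summed per kilobase, the 2 enzymes changed differently toward maturity. The pyruvate decarboxylase sum in DAN3130 was 5237 ± 470 on DAP 24, 10044 ± 1586 on DAP 35 and 4684 ± 969 at maturity, and in JI63 it was 13212 ± 1448, 12355 ± 2230 and 14182 ± 1596 at the same stages. The alcohol dehydrogenase sum was 18314 ± 716, 23895 ± 6688 and 5301 ± 1651 in DAN3130 and 31415 ± 4658, 25837 ± 2788 and 10311 ± 1606 in JI63. Under the deposited scaling the JI63 decarboxylase sums of the 3 stages overlapped, while the dehydrogenase sums of both lines at maturity lay below all immature ones. As shares of the total signal of each library, the mature JI63 decarboxylase sums also lay below those of DAP 24 and DAP 35 in JI63. The ratio of dehydrogenase to decarboxylase signal per kilobase was 3.51 ± 0.19 on DAP 24, 2.35 ± 0.33 on DAP 35 and 1.18 ± 0.47 at maturity in DAN3130, and 2.38 ± 0.33, 2.11 ± 0.15 and 0.726 ± 0.069 in JI63. The lowest immature ratio was 1.94 and the highest mature ratio 1.58, so that the mature and immature libraries did not overlap. Together the 5 loci held 0.0779% of all locus signal in mature DAN3130 and 0.139% in mature JI63, against 0.309% in DAN3130 and 0.355% in JI63 on DAP 35.

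**Figure D4:**
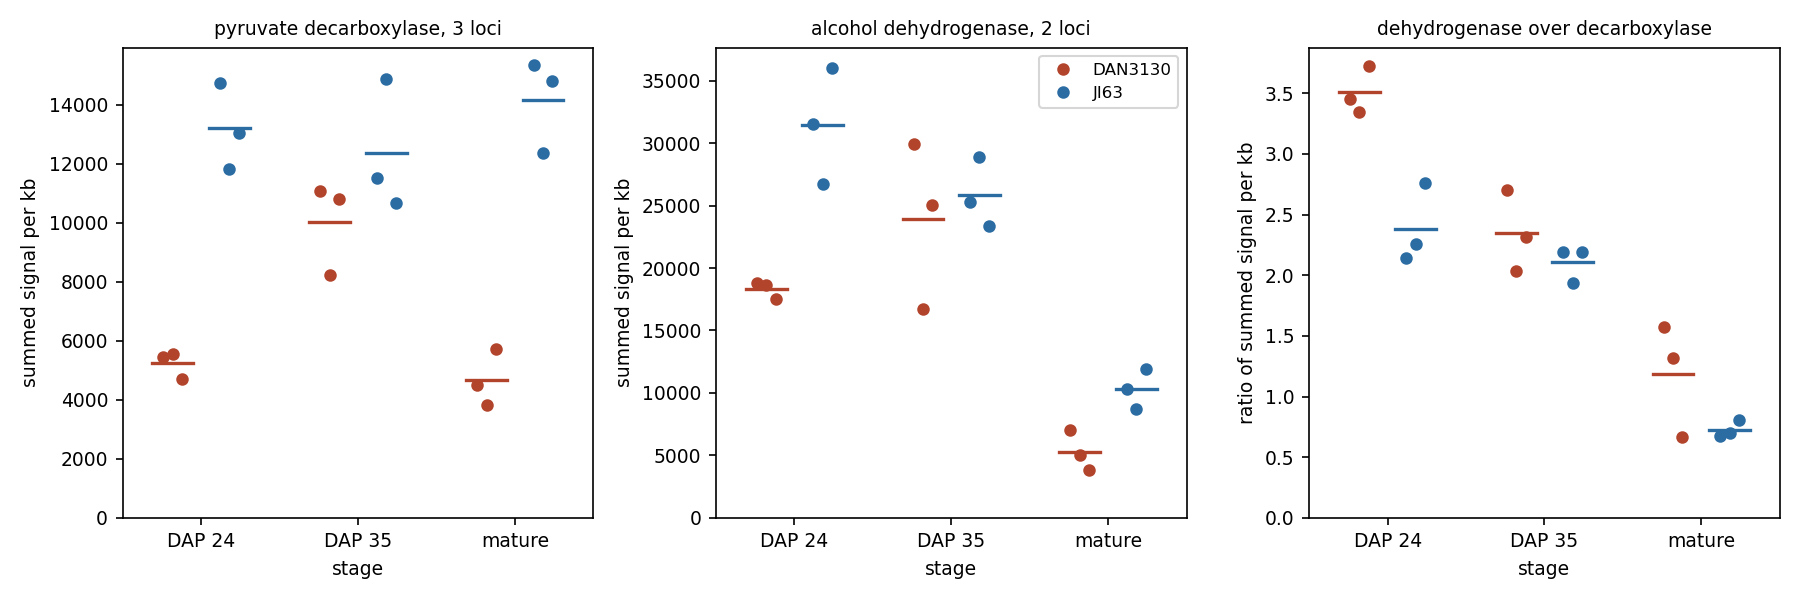
Summed signal per kilobase of the 3 pyruvate decarboxylase loci (left) and the 2 alcohol dehydrogenase loci (middle), and the ratio of the second sum to the first (right), by stage with DAN3130 left of JI63; points are libraries and bars are means of 3. The ratio lies between 0.663 and 1.58 in the 6 mature libraries and at 1.94 or above in the 12 immature ones.

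Intron entries of the table, which count reads within introns, existed for PDC2, ADH1 and ADH2. ADH1 had the most, 708 reads over 18 libraries, and its intron entry never exceeded 0.207% of the locus signal. In mature kernels the ADH1 intron had 2 reads in DAN3130 and 0 in JI63, against 105 in DAN3130 and 214 in JI63 on DAP 35. Its signal was 0, 0 and 2.16 in mature DAN3130, against 25.6, 13.4 and 45.3 on DAP 35, and 0 in all 3 mature JI63 libraries, against 29.5, 4.88 and 8.68 on DAP 35. The mature libraries thus lay below those of DAP 35 in both lines. In a mature library a count of 0 allows up to 3 reads, a signal of 7.24 and 10.6 in those of DAN3130 with 0 reads and of 6.21 to 7.74 in JI63, so the difference exceeds this limit for every DAP 35 library but JI63 replicate 2. No test was run on the intron entries. The PDC2 and ADH2 introns held 73 and 90 reads over all libraries. At that depth no stage change could be read for PDC2 and ADH2 introns.

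Across the 18 libraries, the log2 levels of PDC1 and ADH1 ran closest together (Pearson r = 0.90), followed by ADH1 and ADH2 (r = 0.88) and PDC1 and ADH2 (r = 0.81). PDC3 stood apart from ADH2 (r = 0.13), PDC1 (r = 0.14) and ADH1 (r = 0.30). These libraries share lines, stages and scaling, and the values are a description. Among 2653 named loci with a mean of at least 100, the pattern most like that of PDC3 was thiamine biosynthesis1 (r = 0.96), an enzyme of the thiamine pathway, with group means of 2002 in mature DAN3130 and 10572 in mature JI63. Calcineurin B-like5 (r = 0.92) and phospholipid transfer protein homolog1 (r = 0.91) came next. PDC2 was most like stearoyl-acyl-carrier-protein desaturase1 (r = 0.91), which puts the first double bond into stearic acid, and triose phosphate isomerase4 (r = 0.88), a glycolytic enzyme. DNA binding activity3 (r = 0.85) was the next for PDC2. The nearest to PDC1 were leunig-related2 (r = 0.92), cellulose synthase5 (r = 0.92) and AP2-EREBP-transcription factor 13 (r = 0.91). ADH1 was most like GRAS-transcription factor 69 (r = 0.95), phosphatidylethanolamine-binding protein (r = 0.93) and multidrug resistance-associated protein 4 (r = 0.93). ADH2 was most like AP2-EREBP-transcription factor 200 (r = 0.96), MYB-transcription factor 138 (r = 0.94) and annexin2 (r = 0.94).

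More of the genes that lead to pyruvate were called lower at the last step in DAN3130 than in JI63. Of 21 tested loci of sucrose cleavage and glycolysis, 0 were called higher and 19 lower in comparison III, beside 31.5% of all loci lower, with a median log2 change of -2.96 beside -0.43 over all loci. In comparison IV 0 were higher and 9 lower, beside 27.8% of all loci lower, with a median of -0.70 beside -0.36. The line difference in the change was called lower for 10 of 21 and higher for 0, beside 7.92% and 5.9% of all loci. At an unadjusted p under 0.05, 0 loci were higher in comparison III and 1 in comparison IV, and edgeR called 0 and 0 and DESeq2 0 and 1 higher in these comparisons. Shrunken1, an endosperm sucrose synthase and the highest of the list, averaged 2604 in mature DAN3130 and 163540 on DAP 35 (log2 -6.14, adjusted p = 4.37e-09), and 1997 in mature JI63 and 27828 on DAP 35 (log2 -3.78, adjusted p = 6.52e-07). Aldolase1, which splits fructose bisphosphate, fell by 1.70 in DAN3130 and by 1.79 in JI63. Glyceraldehyde-3-phosphate dehydrogenase2 fell by 0.59 in DAN3130 (adjusted p = 0.0014), and its change in JI63 was -0.011 (adjusted p = 0.985). Glyceraldehyde-3-phosphate dehydrogenase1 changed by 0.15 in DAN3130 and 0.54 in JI63, and neither was called. From DAP 24 to DAP 35, 1 of 21 was lower in DAN3130 and 4 in JI63, beside 2.14% and 4.82% of all loci. By limma or edgeR 0 were higher in either line, beside 4.41% and 4.27% of all loci by limma. At an unadjusted p under 0.05, 3 were higher in DAN3130 and 0 in JI63, and by DESeq2 2 and 0.

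The list of other pyruvate uses held 10 tested loci, among them pyruvate dehydrogenase (lipoamide) kinase1, a kinase that entered through its name. Of the 10, 1 was called higher and 6 lower in comparison III (median -1.58), beside 19.2% of all loci higher and 31.5% lower. In comparison IV 1 was higher and 4 lower (median -1.72), beside 17.8% and 27.8% of all loci. In comparison III edgeR called 0 higher and 6 lower and DESeq2 1 and 6, and in comparison IV edgeR called 1 and 6 and DESeq2 1 and 7. Alanine aminotransferase5, which converts pyruvate to alanine, fell by 2.54 in DAN3130 and by 1.79 in JI63, and pyruvate dehydrogenase2, part of the complex that feeds pyruvate into respiration, fell by 0.68 in DAN3130 and by 0.91 in JI63. Pyruvate dehydrogenase3 fell by 1.02 in DAN3130 and changed by -0.037 in JI63 (adjusted p = 0.958), and alanine aminotransferase9 fell by 4.32 in DAN3130 (2.38 without mature replicate 2) and changed by -1.87 in JI63 (adjusted p = 0.152, with 0.0312 in edgeR and 0.0125 in DESeq2). The locus called higher in both lines was pyruvate dehydrogenase4, at 0.65 in DAN3130 and 0.99 in JI63. Under equal totals these were 0.18 in DAN3130 and 0.044 in JI63, neither called, and edgeR did not call the DAN3130 value (adjusted p = 0.0675). Lactate dehydrogenase1, which makes lactate in place of ethanol, averaged 19.2 in mature DAN3130 and 399.8 on DAP 35, and 107.3 in mature JI63 and 523.8 on DAP 35, and was called lower in both lines, in JI63 not without DAP 35 replicate 2 (adjusted p = 0.0703). Its log2 change in DAN3130 was -4.81, and -3.79 without mature replicate 1. Pyruvate dehydrogenase4 and lactate dehydrogenase1 were named after their values were seen.

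Of 6 tested loci for enzymes that take acetaldehyde onward to acetate, 1 was called higher and 2 lower in comparison III (median -0.0095). In comparison IV 2 were called higher and 1 lower (median -0.23). Of all loci, 19.2% were called higher and 31.5% lower in comparison III, and 17.8% and 27.8% in comparison IV. Aldehyde dehydrogenase2 averaged 27001 in mature DAN3130 and 12599 on DAP 35 (log2 1.02, adjusted p = 0.0505), and 29411 in mature JI63 and 11315 on DAP 35 (log2 1.49, adjusted p = 0.0078). In JI63 the stages overlapped, at 46856, 18860 and 22516 at maturity against 6695, 20791 and 6460 on DAP 35. Restorer of fertility2, a mitochondrial aldehyde dehydrogenase, changed by -0.18 in DAN3130 and -0.34 in JI63, and neither was called. Putative aldehyde dehydrogenase MIS1 rose by 0.62 in DAN3130 (adjusted p = 0.00445) and changed by -0.12 in JI63 (adjusted p = 0.601). Formaldehyde dehydrogenase homolog1, which entered the list through its name and acts on formaldehyde, rose by 1.18 in JI63 (adjusted p = 3.04e-05) and changed by 0.17 in DAN3130. Aldehyde dehydrogenase3, named after its values were seen, was lower in both lines, at 12.4 in mature DAN3130 and 718.7 on DAP 35, and at 40.0 in mature JI63 and 343.9 on DAP 35. Its log2 change of -6.90 in DAN3130 was -5.64 without mature replicate 2, and that of -2.88 in JI63 was not called without DAP 35 replicate 2 (adjusted p = 0.0554).

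Among other genes known from oxygen shortage, 2 of 5 tested loci were called lower and 0 higher at maturity in each line, beside 31.5% of all loci lower in comparison III and 27.8% in comparison IV. Both were hemoglobins, non-symbiotic forms that bind oxygen and nitric oxide. In comparison III edgeR and DESeq2 each called 1 lower, and in comparison IV each called 2. Hemoglobin2 was 33.8, 67.3 and 16.2 in mature DAN3130, against 250.0, 200.2 and 229.6 on DAP 35, and fell by 2.72 on the log2 scale (adjusted p = 0.00214). In JI63 hemoglobin2 was 15.5, 87.0 and 34.1 at maturity, against 117.6, 287.3 and 155.8 on DAP 35, and fell by 2.24 (adjusted p = 0.00886). The stages did not overlap in either line.

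Hemoglobin1 was 0, 488.8 and 21.6 in mature DAN3130, against 690.3, 561.8 and 378.6 on DAP 35, so that 1 mature library lay within the DAP 35 range. Its log2 change of -4.57 (adjusted p = 0.0106) was -2.33 without the mature library at 0 and -6.80 without the one at 488.8, and was not called by edgeR (adjusted p = 0.0992) or DESeq2 (adjusted p = 0.133). In JI63 hemoglobin1 was 33.5, 60.0 and 34.1 at maturity, against 344.5, 594.9 and 533.2 on DAP 35, with a log2 change of -3.51 (adjusted p = 0.0449). That call was lost in 16 of the 18 fits that left out 1 library (adjusted p up to 0.104), while edgeR gave an adjusted p of 0.00967 and DESeq2 of 0.000927.

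Alternative oxidase1, a mitochondrial oxidase that bypasses part of the respiratory chain, was 45.9, 0 and 93.9 in mature DAN3130 and 2593, 3215 and 2247 in mature JI63. The log2 difference of -7.34 (adjusted p = 7.15e-05) was -5.32 without the DAN3130 library at 0. On DAP 35 alternative oxidase1 stood at 89.5, 141 and 75.4 in DAN3130 and at 519, 775 and 476 in JI63. On DAP 24 it stood at 31.2, 56.9 and 27.7 in DAN3130 and at 313, 347 and 402 in JI63. Alternative oxidase2 was 0, 357.7 and 260.2 in mature DAN3130 and 931.4, 1441 and 1076 in mature JI63. Its log2 difference of -4.64 (adjusted p = 0.0202) was -1.89 (adjusted p = 0.00175) without the DAN3130 library at 0. For both oxidases all mature DAN3130 libraries lay below those of mature JI63, and for alternative oxidase1 also on DAP 24 and DAP 35. Alternative oxidase2 was 360, 821 and 328 on DAP 35 of JI63. For both oxidases the mature JI63 libraries lay above those of DAP 35, a difference that limma did not call. Between the lines at maturity, 2 of these 5 loci were called lower in DAN3130 and 0 higher, beside 21.5% and 15.6% of all loci. No locus of the list was higher at an unadjusted p under 0.05 in these 3 comparisons, and edgeR and DESeq2 each called 1 higher in comparison IV and 0 in the other two.

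**Figure D5:**
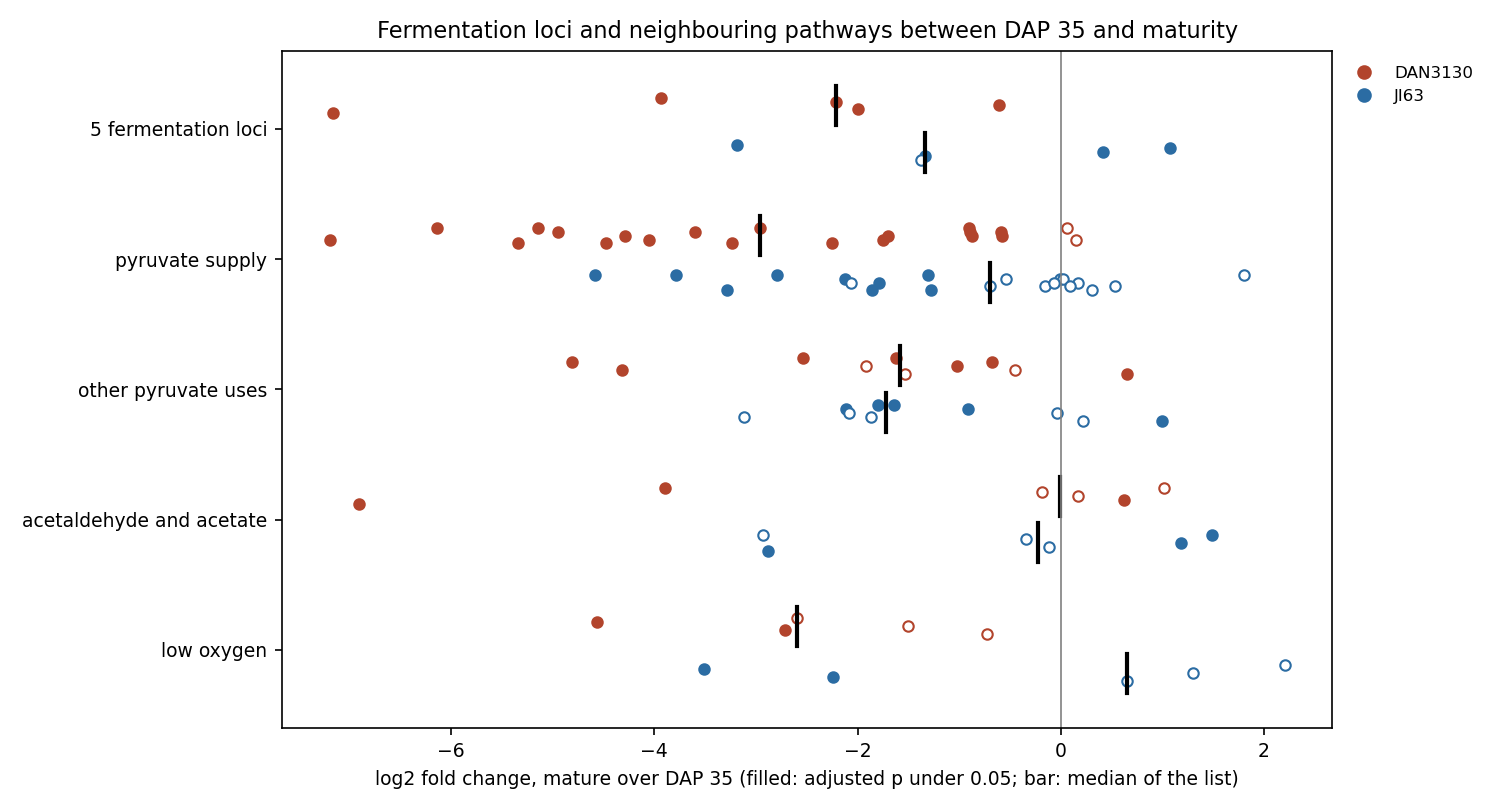
Log2 fold change of mature over DAP 35 kernels for the 5 fermentation loci and for the tested loci of 4 neighbouring lists, with DAN3130 above JI63 in each row; filled points have an adjusted p under 0.05 and black bars are list medians. The median of the pyruvate supply list is -2.96 in DAN3130 and -0.70 in JI63, and the fermentation loci of JI63 lie on both sides of 0.

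Reads were counted without strand, so transcripts of an overlapping gene on the other strand would be counted with a locus. The decarboxylase genes are related in sequence, as are the dehydrogenase genes, and how reads shared between copies were divided was not tested. The named alcohol dehydrogenase loci that the rule leaves out were cinnamyl alcohol dehydrogenase1, an enzyme of lignin synthesis with a median of 49.0 and a maximum of 89.5 over the 18 libraries, and short chain alcohol dehydrogenase1, with 0 reads in all 18.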

How the data were processed

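RNA-seq of whole maize kernels was used from 18 libraries, 3 for each of 2 lines at 3 stages. The authors mapped reads, strand ignored, onto B73 AGPv4 (HISAT2 2.1.0), built loci with Cufflinks and Cuffcompare and counted reads per locus in HTSeq 0.11.2. The deposited signal is counts per locus divided by DESeq2 size factors. In every library 100% of the values were whole multiples of 1 step within 0.1%, so read counts were recovered for the count tests and for depth. The table held 0 columns of other samples.

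Loci with a mean above 10 were tested in R 4.3.3 with the moderated test of limma 3.58.1 and its mean trend, on log2 of the signal plus 1, over 6 groups and 9 comparisons. Calls required an adjusted p (Benjamini-Hochberg) under 0.05. On counts simulated for DAN3130 DAP 35 over DAP 24 (28852 loci), the test called 23 of 50 loci raised 2-fold, 50 of 50 raised 4-fold and 7 of 28652 left alone. The simulation gave every locus the same spread between libraries beyond counting noise, and raised only loci of higher mean. Its shares of calls therefore do not carry over to noisier loci such as PDC1 (SE 0.53) and ADH2 (SE 0.60). Alternatives were pseudocounts of 0.5 and 5, a mean above 1 or no filter, fitting the compared groups alone, a variance for each group, no trend, equal totals, equal upper quartiles, edgeR 4.0.16, DESeq2 1.42.0 and leaving out each library. For the loci of the lists, equal totals, edgeR, DESeq2 and leaving out each library were added after seeing the data. Replicates were numbered in the order of their records, and no pairing between groups is given.

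The members and the gene lists were chosen with earlier results of these data known. Named were every member, up to 4 loci of highest mean in each list, and the 3 loci most like each member by Pearson correlation of log2 values. Lists are text matches to gene names. No sequence is printed and the planned search for promoter motifs was not run, since no sequence table of this build was used here.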

Additional observations from a re-analysis of the deposited data

Results flagged for a closer look

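The change between stages differed between the lines for 3 of the 5 loci, by the interaction term of limma. Over all tested loci that term was called higher for 1.66% and lower for 0.706% at the first step. At the second step it was called higher for 5.9% and lower for 7.92%. From DAP 24 to DAP 35 the DAN3130 change minus the JI63 change was 1.99 on the log2 scale for PDC2 and 1.16 for PDC3. From DAP 35 to maturity it was -3.28 for PDC2, -1.03 for PDC3 and -5.79 for ADH2, with -4.88 for ADH2 without DAN3130 mature replicate 3. The PDC3 values had an adjusted p of 0.0570 for the first step in a fit without a trend and of 0.0595 for the second with a variance for each group.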

How the results depend on the processing

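Over 29 alternatives for each comparison, the number of the 5 loci called stayed within 1.5 times its main value in 242 of 261 cases. In comparison I, 2 loci rather than 1 were called with a variance for each group, and leaving out 1 library gave 1 to 2. In comparison II, 2 rather than 1 were called when only the groups compared were fitted, with a variance for each group and by DESeq2, and leaving out 1 library gave 1 to 2. Between the lines on DAP 35, against 1 called (PDC3, lower in DAN3130), 2 were called with a pseudocount of 5 (PDC3 lower and ADH2 higher) and 2 when only the groups compared were fitted (PDC2 and ADH2, both higher), 3 with a variance for each group or by DESeq2 (PDC3 lower, PDC2 and ADH2 higher), 1 by edgeR (ADH2 higher), 0 with no filter or no trend, and 0 to 3 when 1 library was left out. Between the lines in mature kernels, 2 rather than 4 were called when only those groups were fitted. For the line difference in the DAP 24 to DAP 35 change, 1 rather than 2 was called with no trend. The cause of these changes was not tested.

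Of 1305 alternative fold changes, 1238 kept their direction and side of the threshold and 13 turned direction, among which 1 was past the threshold in both fits: PDC3 in JI63 mature over DAP 35, at -0.53 under equal totals. The other 12 lay between -0.067 and 0.47 and were not past the threshold. Under equal upper quartiles PDC3 in comparison II was 0.0029, and PDC1 between the lines on DAP 24 was 0.024, with 0.047 under equal totals. Leaving out 1 library gave -0.067 to 0.47 for ADH2 in comparison I and -0.13 to 0.029 for PDC3 in comparison II. Between the lines it gave -0.26 to 0.47 for PDC1 and -0.26 to 0.041 for ADH2 on DAP 24, and -0.95 to 0.10 for PDC1 on DAP 35. For PDC1 it gave -0.97 to 0.10 in the line difference of the first step. Equal totals shifted the median of all loci by 0.28 between the lines in mature kernels. No paired analysis was possible because the labels give no replicate number that groups share. Depth limits ADH2 in mature DAN3130 most, at 8 to 24 reads. Few libraries per group limit all tests, and the mature libraries differ in total signal from the immature ones.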
